A study of Mus musculus with 6 samples.

Results

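The axon guidance genes of the semaphorin, plexin, neuropilin, Slit, Robo, netrin, DCC and Unc5 families were examined in neural stem/progenitor cells that overexpressed Bmi1. Members were the genes whose platform symbol begins with Sema, Plxn or Unc5, is Slit, Robo or Ntn followed by a number, or is Nrp1, Nrp2, Dcc or Neo1. The rule found 50 of the 19938 genes that a probe set names alone. It uses no measured value. Unc50 and Unc5cl meet the rule by their letters. Unc50 encodes a membrane protein unrelated to netrin receptors, and Unc5cl was likewise not counted as a netrin receptor. The other 48 members belong to the named families. Neither Unc50 nor Unc5cl passed the test.

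Gene expression was profiled with 6 Affymetrix Mouse Gene ST 1.0 arrays, each hybridised with 1 RNA sample, 3 of Bmi1-overexpressing neurospheres and 3 of empty vector control neurospheres. Neurospheres are free-floating spheres grown from single stem/progenitor cells in EGF and FGF. The cells of all groups had been isolated from tissue lining the lateral ventricle of outbred CD1 mice aged 4 to 6 weeks. The Bmi1 group was transduced with the pCMMP-Bmi1 retroviral vector and the control group with the empty vector, and all cultures were sorted on eGFP and plated clonally at 2000 cells per well. The series text calls the 3 cultures of a group independent. Whether they came from separate mice is not given in the sources used here, so the p-values rest on a spread among samples that may be technical in part. The text of the paper names a FLAG-tagged Bmi1, whereas the labels name none. In the labels, the source field contradicts the title, the transduction and the genotype on each of the 6 arrays. Groups were taken from the title, with which the transduction and genotype entries coincide. The study's own column headings for these arrays also name the groups as the titles do. If the source field were right instead, every sign below would turn.

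Guidance genes encode cues and receptors that steer growing axons and migrating cells. Slits are secreted and bind Robo receptors. Netrins are secreted and bind DCC and neogenin, which mostly attract, and Unc5 receptors, which repel. Semaphorins signal through plexins, and most of the secreted class 3 semaphorins need a neuropilin to do so. In the lateral ventricle wall, Slits are known for guiding the neuroblasts that migrate to the olfactory bulb. BMI-1, the product of Bmi1, is a core subunit of the Polycomb repressive complex PRC1.

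The level of each array is given as the RMA value, the log2 expression of a probe set after background correction and quantile normalization. A difference is the mean of the Bmi1 group minus that of the empty vector group on that scale, and a gene rose or fell where the Benjamini-Hochberg adjusted p from limma was under 0.05. The Bmi1 probe set itself read 9.18, 8.36 and 8.42 on the Bmi1 arrays and 7.70, 8.40 and 8.31 on the empty vector arrays. These values overlapped. The difference was 0.52 (95% confidence interval -0.16 to 1.19, adjusted p = 0.38 from limma, exact permutation p = 0.2, two-sided), so the overexpressed gene did not separate the groups on these arrays. Whether its probes lie in the transduced sequence was not examined. Array medians lay between 4.37 and 4.45. Pearson correlations over all probe sets were 0.991 to 0.993 within groups and 0.985 to 0.987 between groups.

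Of the 50 members, 14 passed the test (28%), 8 of them lower and 6 higher in the Bmi1-overexpressing neurospheres. The background was 7.35% of the 19938 genes, with 4.37% lower and 2.98% higher. Over all 35557 probe sets it was 5.7%, with 3.46% lower and 2.23% higher. Members were brighter than most probe sets, with a median of 5.39 to 5.63 on the 6 arrays against array medians of 4.37 to 4.45. The background shares are not matched for signal level, and the part of this level in the share of members past the test was not tested. The genes that fell encode the ligands Slit2, Sema3a, Sema3c and Ntn4, the transmembrane semaphorins Sema6a and Sema6d, the netrin receptor Unc5b and the plexin Plxna2. Those that rose encode the receptors Nrp2, Plxnc1, Plxnd1 and Unc5c and the semaphorins Sema6c and Sema7a. The median difference over all members was 0.09, against 0.01 over all genes. Differences were positive in 33 of the 50 members and in 27 of the 36 that did not pass, against 10588 of all 19938 genes. Values of the groups did not overlap for 27 members (54%), against 31.3% of all genes and 26.6% of all probe sets. These were the 14 members past the test and 13 others. Exact permutation of 3 against 3 arrays allows no p under 0.1 for one gene. In bulk RNA, fewer cells of a type and less RNA per cell cannot be told apart.

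**Figure D1:**
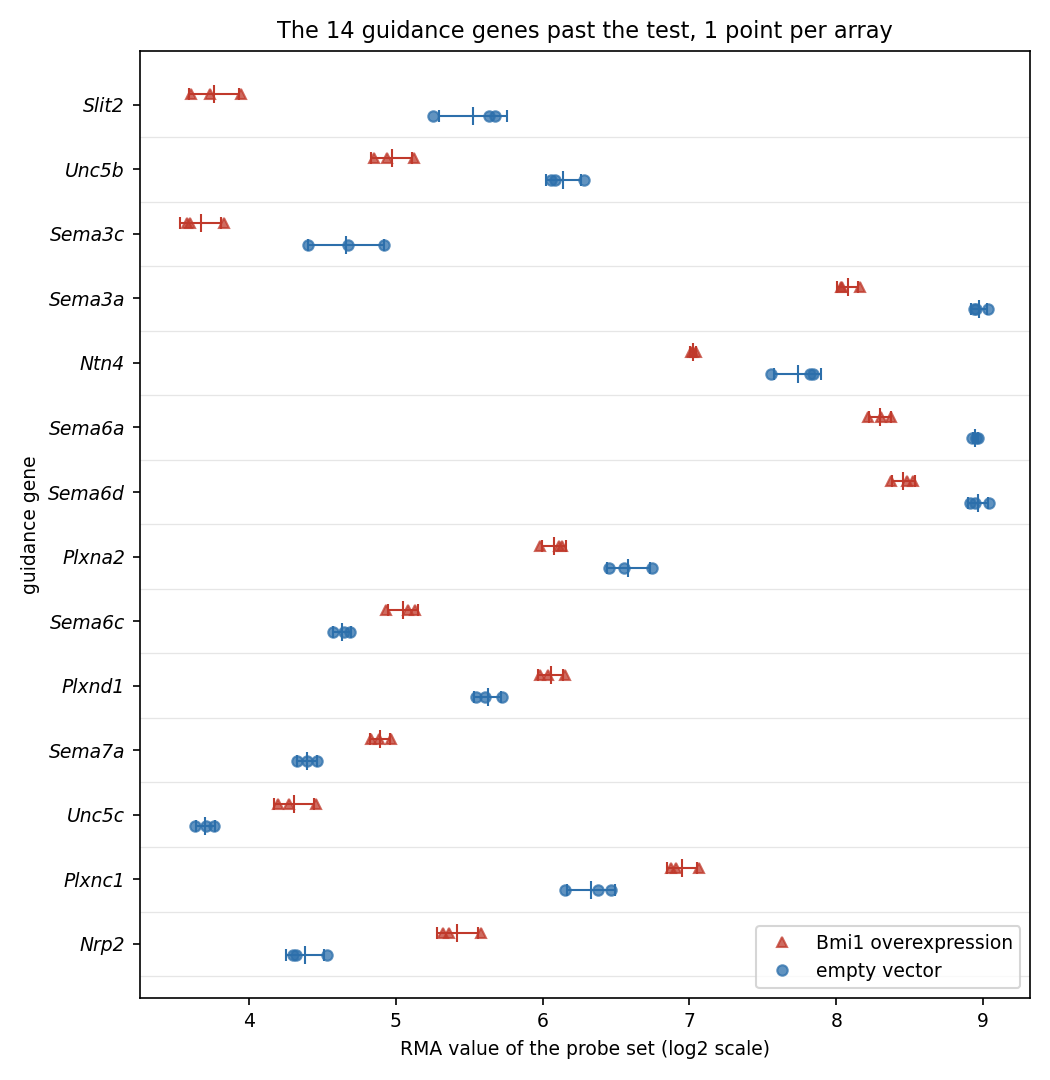
RMA values (log2 scale, x axis) of the 14 guidance genes past the test, with 1 triangle per Bmi1 overexpression array, 1 circle per empty vector array, and the mean and SD of each group (n = 3) as a tick and a bar. Slit2, at the top, fell by 1.76 and Nrp2, at the bottom, was higher by 1.04, and in none of the 14 genes did the groups overlap.

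The differences reached a factor of at least 2 for 3 members, Slit2, Unc5b and Nrp2. These 3 genes are also in the list that the study selected on these arrays, so that list is no independent evidence of their direction. The 250 bases before the RefSeq start of each are shown because no other member changed as much. They are taken from the RefSeq promoter table of build GRCm38.p6 and written 5′ to 3′ on the gene's own strand. Capitals mark the dinucleotide CG, which reads the same on both strands and is the unit of CpG islands.
Slit2 (chr5:47982905-47983154, plus strand): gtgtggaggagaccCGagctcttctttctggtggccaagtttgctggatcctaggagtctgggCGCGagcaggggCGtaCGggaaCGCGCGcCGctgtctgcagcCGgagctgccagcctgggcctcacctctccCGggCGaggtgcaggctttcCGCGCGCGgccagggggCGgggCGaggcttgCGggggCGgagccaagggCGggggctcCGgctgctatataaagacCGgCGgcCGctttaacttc
Unc5b (chr10:60831582-60831831, minus strand): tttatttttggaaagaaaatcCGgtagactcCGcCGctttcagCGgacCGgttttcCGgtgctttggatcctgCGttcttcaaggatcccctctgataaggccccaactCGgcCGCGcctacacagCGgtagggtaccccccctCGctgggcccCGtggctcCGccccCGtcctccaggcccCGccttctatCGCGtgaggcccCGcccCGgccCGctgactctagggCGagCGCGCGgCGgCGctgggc
Nrp2 (chr1:62703067-62703316, plus strand): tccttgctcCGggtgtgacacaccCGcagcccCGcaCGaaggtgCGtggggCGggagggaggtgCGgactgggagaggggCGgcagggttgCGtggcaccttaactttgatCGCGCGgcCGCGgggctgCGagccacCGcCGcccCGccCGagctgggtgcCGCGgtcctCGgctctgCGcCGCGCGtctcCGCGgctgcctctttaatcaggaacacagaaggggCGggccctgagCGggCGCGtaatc

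These stretches hold 25 CG in Slit2, 27 in Unc5b and 32 in Nrp2. Over the whole window of 300 bases, from 250 before to 50 after the start, the counts were 30, 36 and 37. Where a gene had several windows, the one with the most CG was used, for members and for all genes alike. At least as many CG were found in 12.9% of the 27025 genes for Slit2, in 6.98% for Unc5b and in 6.26% for Nrp2. A window was found for 41 of the 50 members. Their median was 23 CG, against 8 over all genes, and 23 of the 41 (56.1%) held at least 20, against 28.8% of all genes. These 27025 genes are not restricted to genes on the array or matched for signal level. The part of signal level in these counts was not tested. By outcome, the median was 30 in the 7 members that fell and have a window, 23.5 in the 6 that rose and 17 in the 28 that did not pass. The lowest count among the members that fell was 2, in Sema3a. These are counts of letters in the reference and describe no binding or methylation in these cells.

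Slit2 encodes a secreted ligand of the Robo receptors and had the largest difference among the members. It read 3.94, 3.74 and 3.61 on the Bmi1 arrays, against 5.26, 5.68 and 5.63 on the empty vector arrays. All 3 Bmi1 arrays lay below every empty vector array. The group means were 3.76 ± 0.17 with Bmi1 and 5.52 ± 0.23 with the empty vector (SD, n = 3 each), a difference of -1.76 (SE 0.14, adjusted p = 0.0021 from limma). The Bmi1 values lay below the medians of their arrays, where a level may be background, so no exact fold is given. The other Slit genes did not pass the test. Slit1 read 4.17, 4.35 and 4.38 with Bmi1, against 4.06, 4.16 and 3.98 with the empty vector, a difference of 0.24 (adjusted p = 0.21). Slit3 read 4.06, 4.04 and 3.98 with Bmi1 and 4.03, 3.81 and 3.88 with the empty vector, a difference of 0.12 (adjusted p = 0.49). Only the groups of Slit3 overlapped, and both genes lay below the median of the array on all 6 arrays.

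None of the 4 Robo receptor genes passed the test. Robo1, a receptor for Slits, read 7.16, 7.49 and 7.35 on the Bmi1 arrays, against 7.75, 8.17 and 7.94 on the empty vector arrays. The groups did not overlap, and the difference of -0.62 (SE 0.14) just missed the threshold (adjusted p = 0.056 from limma). Robo2 read 6.94, 6.99 and 6.99 with Bmi1 and 6.78, 6.87 and 7.02 with the empty vector, an overlapping pair of groups with a difference of 0.08 (95% confidence interval -0.11 to 0.28). Robo1 and Robo2 are direct neighbours on chromosome 16, with 0 protein-coding genes between them in the GRCm38.p6 annotation. Robo3, which acts in axons that cross the midline, read 4.25, 3.74 and 3.77 with Bmi1 and 4.05, 3.75 and 3.65 with the empty vector. Robo4, known from endothelial cells, read 4.09, 4.17 and 4.12 with Bmi1 and 4.31, 4.00 and 3.82 with the empty vector. Both genes lay below the array median on all arrays, with overlapping groups and differences of 0.10 and 0.08 (adjusted p = 0.80 and 0.78).

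Ntn4 was the only one of the 4 netrin genes to pass the test. Its product, netrin-4, is a secreted protein of basement membranes that binds laminins. Ntn4 read 7.05, 7.01 and 7.02 on the Bmi1 arrays, against 7.55, 7.84 and 7.82 on the empty vector arrays. The Bmi1 arrays lay close together and all below the others. The means were 7.03 ± 0.02 with Bmi1 and 7.74 ± 0.16 with the empty vector (SD, n = 3 each), a difference of -0.71 (SE 0.095, adjusted p = 0.010 from limma). Ntn1, the best-known attractant of the family, read 7.77, 7.71 and 7.76 with Bmi1 and 7.58, 7.73 and 7.57 with the empty vector, overlapping by 1 array. Its difference of 0.12 did not pass (95% confidence interval -0.06 to 0.29, adjusted p = 0.44). Ntn3 read 5.95, 5.96 and 5.87 with Bmi1, against 6.12, 6.04 and 6.23 with the empty vector, a difference of -0.20 with groups apart (adjusted p = 0.21). Ntn5 read 3.76, 4.08 and 3.67 with Bmi1 and 3.79, 3.93 and 3.46 with the empty vector, a difference of 0.11 with groups that overlapped (adjusted p = 0.77).

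The Unc5 genes, receptors through which netrins repel, passed the test in both directions. Unc5b read 4.85, 4.94 and 5.12 on the Bmi1 arrays, against 6.06, 6.09 and 6.28 on the empty vector arrays. The gap between the groups was far wider than the spread within either, and the difference was -1.17 (SE 0.10), or 2.25-fold lower with Bmi1 (adjusted p = 0.0026 from limma). Unc5c read 4.19, 4.27 and 4.46 with Bmi1, against 3.76, 3.71 and 3.63 with the empty vector, and rose by 0.61 (SE 0.090, adjusted p = 0.015). All 3 Bmi1 arrays lay above the others. Unc5a did so as well, at 5.52, 5.29 and 5.51 with Bmi1 and 4.87, 4.49 and 4.96 with the empty vector, but its difference of 0.67 missed the threshold (adjusted p = 0.051). Unc5d overlapped, at 4.74, 4.53 and 4.69 with Bmi1 and 4.67, 4.59 and 4.48 with the empty vector, and differed by 0.07 (adjusted p = 0.73). Unc5c lost its call without empty vector replicate 2 or 3 or Bmi1 replicate 2 (adjusted p = 0.063, 0.066 and 0.054). Its values on all empty vector arrays and on Bmi1 replicates 1 and 2 lay below the array medians, where a level may be background.

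The receptors that mediate attraction by netrin-1 did not pass. Dcc read 5.14, 5.38 and 5.26 with Bmi1, against 4.68, 5.06 and 5.01 with the empty vector. The groups did not overlap, but with a difference of 0.34 the gene did not pass (adjusted p = 0.19 from limma). Neo1, which encodes neogenin, read 8.41, 8.62 and 8.77 with Bmi1 and 8.55, 8.66 and 8.54 with the empty vector. It had the difference closest to 0 among the members (0.02, 95% confidence interval -0.24 to 0.27).

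**Figure D2:**
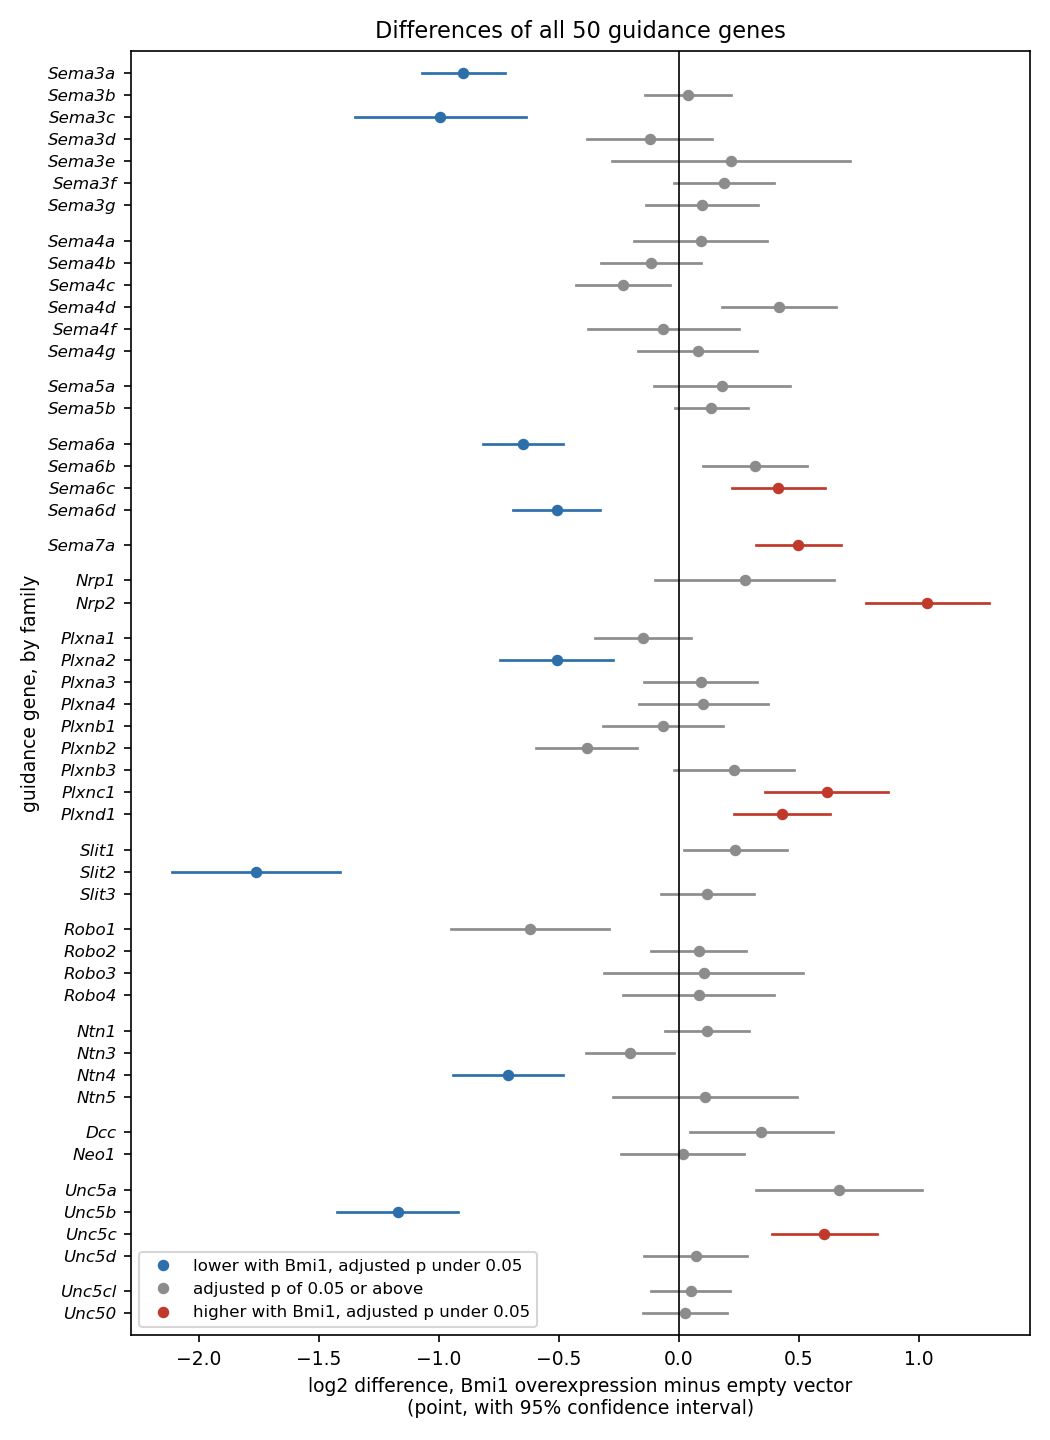
Log2 differences (Bmi1 overexpression minus empty vector, x axis) of all 50 members by family, as points with 95% confidence intervals from limma, n = 3 arrays per group. Points left of 0 are lower with Bmi1 and points right of 0 are higher. Slit2 and Unc5b lie farthest to the left and Nrp2 farthest to the right.

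Among the 7 secreted class 3 semaphorins, 2 fell and 0 rose. Sema3a, a repellent cue for many axons, read 8.03, 8.04 and 8.16 on the Bmi1 arrays, against 8.95, 8.94 and 9.03 on the empty vector arrays. Replicates differed little within a group, and the difference was -0.90 (SE 0.072), or 1.86-fold lower with Bmi1 (adjusted p = 0.0019 from limma, the smallest among the members). Sema3c, which is also known for its part in the development of the heart, read 3.58, 3.60 and 3.83 with Bmi1, against 4.40, 4.67 and 4.92 with the empty vector. Its difference was -0.99 (SE 0.15, adjusted p = 0.015). As for Slit2, the Bmi1 values of Sema3c lay below the medians of their arrays, where a level may be background. The spread of Sema3c was wider, and the call was lost without empty vector replicate 2, Bmi1 replicate 1 or Bmi1 replicate 2 (adjusted p = 0.063, 0.064 and 0.062).

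The other class 3 genes had differences between -0.12 in Sema3d and 0.22 in Sema3e, with adjusted p of 0.30 or more. Sema3d read 3.07, 3.14 and 3.40 with Bmi1 and 3.27, 3.43 and 3.28 with the empty vector. Sema3e read 3.52, 3.66 and 2.87 with Bmi1 and 3.04, 3.21 and 3.15 with the empty vector, and varied most of all members among the Bmi1 arrays (SD 0.42). Both lay below the array median on all 6 arrays, with overlapping groups. Sema3b read 4.69, 4.60 and 4.69 with Bmi1 and 4.72, 4.58 and 4.57 with the empty vector. Sema3g read 4.46, 4.44 and 4.41 with Bmi1 and 4.43, 4.44 and 4.15 with the empty vector. Sema3f read 5.65, 5.40 and 5.58 with Bmi1, against 5.36, 5.31 and 5.39 with the empty vector, and was the one of these genes whose groups were apart. Sema3d, Sema3a, Sema3e and Sema3c follow each other in this order on chromosome 5. In the GRCm38.p6 annotation, 0 protein-coding genes lie between Sema3d and Sema3a, 3 between Sema3a and Sema3e and 15 between Sema3e and Sema3c. The genes that fell were thus separated by Sema3e, which had a difference of 0.22 (adjusted p = 0.63).

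Neuropilins are the ligand-binding co-receptors of class 3 semaphorins and also bind VEGF. Nrp2 had the largest rise among the members. It read 5.36, 5.32 and 5.58 on the Bmi1 arrays, against 4.53, 4.32 and 4.30 on the empty vector arrays, and the groups were clearly apart. The difference was 1.04 (SE 0.11, adjusted p = 0.0043 from limma). On empty vector replicates 2 and 3 the value lay below the array median, where a level may be background, so no exact fold is given. Nrp1, the neuropilin that Sema3a binds, read 6.07, 6.23 and 6.59 with Bmi1 and 5.90, 5.96 and 6.21 with the empty vector. These ranges overlapped, and the difference of 0.27 did not pass (95% confidence interval -0.10 to 0.65, adjusted p = 0.40).

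Of the 9 plexin genes, which encode the signalling receptors of semaphorins, 2 rose and 1 fell. Plxnd1, the receptor of Sema3e, read 6.04, 5.98 and 6.15 with Bmi1, against 5.54, 5.61 and 5.72 with the empty vector, and rose by 0.43 (SE 0.082, adjusted p = 0.035 from limma). Plxna2, a receptor for class 3 and class 6 semaphorins, read 6.13, 6.11 and 5.98 with Bmi1, against 6.45, 6.75 and 6.55 with the empty vector. It fell by 0.51 (adjusted p = 0.037). In both genes the groups were apart on every array, yet neither call held with any 1 array left out. Without 1 array the adjusted p lay between 0.065 (empty vector replicate 3) and 0.12 (empty vector replicate 2) for Plxnd1, and between 0.053 (empty vector replicate 1) and 0.11 (empty vector replicate 3) for Plxna2. The other A-class plexins did not pass. Plxna1 read 7.52, 7.50 and 7.38 with Bmi1, against 7.57, 7.73 and 7.55 with the empty vector. Plxna3 read 6.14, 6.10 and 6.35 with Bmi1 and 6.18, 6.16 and 5.99 with the empty vector, and Plxna4 read 5.46, 5.34 and 5.68 with Bmi1 and 5.46, 5.46 and 5.25 with the empty vector. All Bmi1 arrays were lower for Plxna1, whereas the groups of Plxna3 and Plxna4 overlapped, and the differences were -0.15, 0.09 and 0.10 (adjusted p = 0.39, 0.68 and 0.68).

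Plxnc1 encodes the plexin that binds Sema7a, a semaphorin anchored to the membrane by a lipid, and both genes rose. Plxnc1 read 6.88, 7.06 and 6.91 on the Bmi1 arrays, against 6.15, 6.47 and 6.38 on the empty vector arrays, a difference of 0.62 (SE 0.11, adjusted p = 0.025 from limma). Sema7a read 4.83, 4.97 and 4.88 with Bmi1, against 4.39, 4.47 and 4.33 with the empty vector, a difference of 0.50 (SE 0.073, adjusted p = 0.015). The groups did not overlap in either gene. The call of Plxnc1 held only without empty vector replicate 2 (adjusted p = 0.049) and was lost without any other array (adjusted p = 0.058 to 0.083). That of Sema7a was lost without empty vector replicate 1 or 3 or Bmi1 replicate 2 or 3 (adjusted p = 0.058, 0.062, 0.056 and 0.051). On empty vector replicates 1 and 3, Sema7a lay below the array median. Plxnc1 lies on chromosome 10 with 8 protein-coding genes between it and Ntn4, which fell.

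The B-class plexins, receptors of class 4 semaphorins, and the class 4 semaphorins themselves did not pass the test. Plxnb2 read 9.16, 9.19 and 9.25 with Bmi1, against 9.47, 9.73 and 9.54 with the empty vector. All Bmi1 arrays were lower, by 0.38 on average (adjusted p = 0.062 from limma). Sema4d, a ligand of B-class plexins, read 4.78, 4.58 and 4.47 with Bmi1, against 4.20, 4.27 and 4.12 with the empty vector, a difference of 0.42 (adjusted p = 0.068). A second probe set of Sema4d differed by 0.19 (adjusted p = 0.39). The other class 4 genes lay between -0.23 in Sema4c and 0.09 in Sema4a, and Plxnb1 and Plxnb3 had differences of -0.07 and 0.23. The class 5 genes Sema5a and Sema5b differed by 0.18 and 0.14 (adjusted p = 0.47 and 0.31).

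The class 6 semaphorins are transmembrane proteins that act both as ligands and as receptors, and 3 of the 4 passed the test. Sema6a read 8.22, 8.31 and 8.37 on the Bmi1 arrays, against 8.96, 8.93 and 8.95 on the empty vector arrays. The empty vector arrays were nearly the same, and the difference was -0.65 (SE 0.069, adjusted p = 0.0049 from limma). Sema6d read 8.37, 8.52 and 8.48 with Bmi1, against 8.91, 9.04 and 8.95 with the empty vector, and fell by 0.51 (adjusted p = 0.015). Sema6c moved the other way. It read 5.08, 5.13 and 4.94 with Bmi1, against 4.57, 4.65 and 4.69 with the empty vector, and rose by 0.42 (adjusted p = 0.037). Sema6b was apart as well, but its difference of 0.32 did not pass (adjusted p = 0.11). Sema6d lost its call without empty vector replicate 2 or 3 or Bmi1 replicate 1 or 3 (adjusted p = 0.063, 0.059, 0.057 and 0.050). Sema6c kept its call only without Bmi1 replicate 3 (adjusted p = 0.044, otherwise 0.094 to 0.12).

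With each array left out in turn, 6 of the 14 calls held in every fit, those of Slit2, Unc5b, Sema3a, Ntn4, Sema6a and Nrp2. The number of members past the test was then 8, 7 and 9 without Bmi1 replicate 1, 2 or 3, and 9, 8 and 7 without empty vector replicate 1, 2 or 3. Over all probe sets the count was 2025 with all arrays and 974 to 1275 without 1 array. All 14 differences kept their sign under every alternative that gave a value. With groups that do not overlap, leaving out an array could not have turned a sign, so this is no test of direction. Outside these 14 genes, the 36 members not past the test had differences between -0.62 (Robo1) and 0.67 (Unc5a). Of the 50 members, 10 lay below the array median on all 6 arrays, and 0 of these 10 passed the test. On 3 arrays per group a modest change in such genes may not be detectable.

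**Figure D3:**
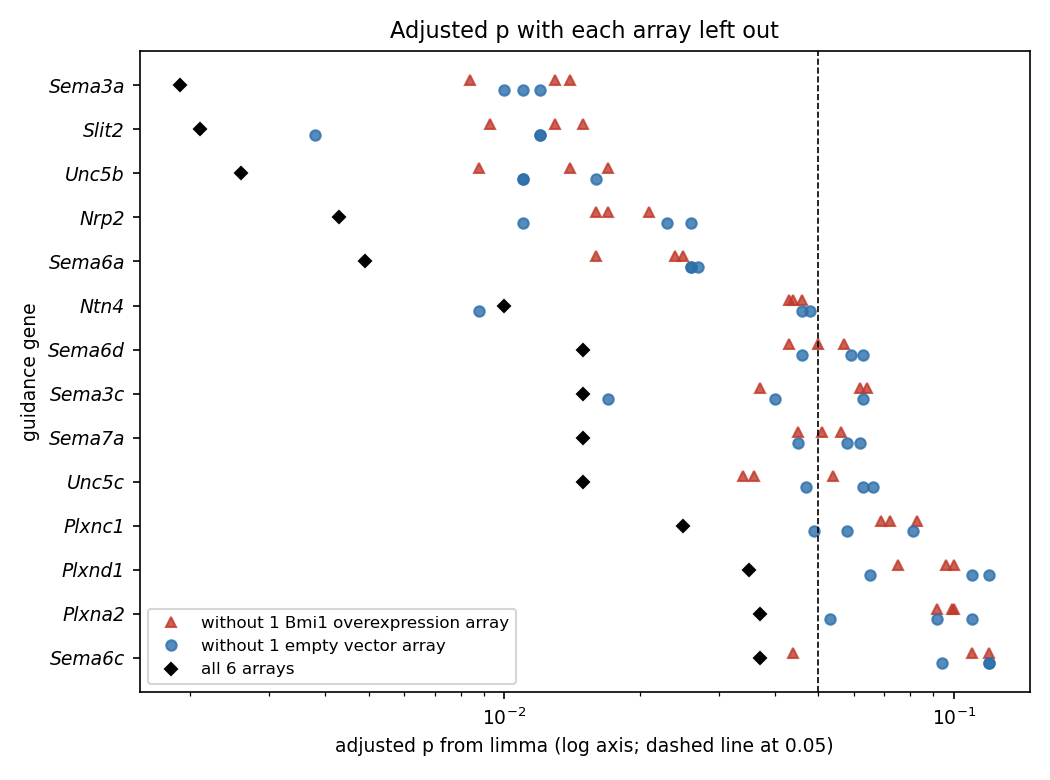
Adjusted p from limma (x axis, log scale, dashed line at 0.05) of the 14 guidance genes past the test, with all 6 arrays (diamond), without 1 Bmi1 overexpression array (triangles) and without 1 empty vector array (circles). For the 6 genes in the upper rows, Sema3a to Ntn4, every point lies left of the line.

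Partner genes of the same receptors were then examined, 110 in all, of which 106 were measured. Of these, 11 rose and 11 fell, 22 of 106 against the 7.35% of all genes given above, with a median difference of 0.00. The partner lists were written with earlier results of these data known, so their shares are no test against that background. The background share is also not matched for the signal level of the partner genes. The largest group was the downstream components of semaphorin and plexin signalling, where 7 of 32 rose and 2 fell. Collapsin response mediator proteins, cytosolic proteins that relay Sema3a signals to microtubules, are encoded by Crmp1 and Dpysl2 to Dpysl5, and all but Dpysl2 rose. Dpysl4 read 6.85, 6.97 and 6.90 with Bmi1, against 5.57, 5.43 and 5.67 with the empty vector, a difference of 1.35 (adjusted p = 8.3e-04 from limma). Crmp1 differed by 0.83 (adjusted p = 0.0027), Dpysl3 by 0.94 (adjusted p = 0.0047) and Dpysl5 by 0.38 (adjusted p = 0.023, but 0.056 to 0.095 without any 1 array). Each of these genes was higher on all 3 Bmi1 arrays than on any empty vector array. Dpysl2 differed by 0.14 and did not pass (adjusted p = 0.35).

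Among the other semaphorin signalling genes, Mical1 and Rnd2 rose. Mical1 encodes an enzyme that oxidises actin downstream of plexins. It read 7.17, 7.35 and 7.26 with Bmi1, against 6.15, 6.16 and 6.37 with the empty vector, a difference of 1.03 (adjusted p = 0.0026 from limma). Its relative Mical2 went the other way, with a difference of -0.98 (adjusted p = 0.0063). Rnd2, a small GTPase that binds plexins, differed by 0.91 (adjusted p = 0.0027). The remaining calls of this list were Farp1, which rose by 0.42 (adjusted p = 0.037, but up to 0.13 without 1 array), and Rap1a, which fell by 0.65 (adjusted p = 0.0059).

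In the list of Slit and Robo signalling, 5 of 19 genes fell and 0 rose, against 4.37% and 2.98% of all genes. They were Nck2 (-0.50, adjusted p = 0.0076 from limma), Srgap2 (-0.47, adjusted p = 0.017), Dag1 (-0.63, adjusted p = 0.019), Abl2 (-0.52, adjusted p = 0.027) and Dock1 (-0.34, adjusted p = 0.045). Nck2 is an adaptor, Srgap2 a GTPase-activating protein, Dag1 encodes dystroglycan, which binds Slits, and Abl2 is a tyrosine kinase. Each is shared with other pathways. Of these calls, that of Nck2 held with each array left out. Those of Abl2 and Dock1 were lost without any 1 array (adjusted p = 0.060 to 0.093 and 0.088 to 0.15), and those of Srgap2 and Dag1 in 4 of the 6 fits (adjusted p up to 0.074 and 0.077). The median difference of the list was -0.08, against 0.01 over all genes. This list, too, was written with earlier results known, so its shares and median are no test against all genes.

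Among 17 other ligands and receptors of the netrin system, 2 rose and 2 fell, against 2.98% and 4.37% of all genes. Flrt3, an adhesion protein that binds Unc5 receptors, differed by 0.52 and Dscaml1, a relative of the netrin receptor Dscam, by 0.68 (adjusted p = 0.016 and 0.019 from limma). Adgrl2, a latrophilin receptor of the family that binds Flrt proteins, differed by -0.60 and Bmp2, a ligand of the neogenin partners of the RGM family, by -0.74 (adjusted p = 0.0061 and 0.013). With each array left out, Adgrl2 kept its call, whereas Bmp2, Flrt3 and Dscaml1 reached an adjusted p of up to 0.054, 0.069 and 0.075. Bmp2 lay below the array median in both groups and Dscaml1 on the empty vector arrays, where a level may be background. Of 17 netrin signalling genes, Trim67 rose by 0.54 and Trio fell by 0.30 (adjusted p = 0.033 and 0.044 from limma). These calls reached an adjusted p of 0.12 and 0.14 without 1 array. In so short a list, 2 calls of 17 are close to the 7.35% of all genes that passed. Of the 16 co-receptors, 0 passed the test.

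VEGF proteins are the other ligands of neuropilins, and 2 of their 5 genes passed, against 7.35% of all genes. Vegfc, a ligand that neuropilin-2 binds, read 3.41, 3.99 and 3.69 with Bmi1, against 5.26, 5.45 and 4.89 with the empty vector. The groups did not overlap, and the difference was -1.50 (SE 0.20, adjusted p = 0.0094 from limma). As for Slit2, the Bmi1 values lay below the array medians and may be background, so no exact fold is given. Vegfb rose by 0.29 (adjusted p = 0.048, but 0.11 to 0.15 without any 1 array). Of the 22 calls among partner genes, 10 held with each array left out, those of Dpysl4, Mical1, Crmp1, Rnd2, Dpysl3, Mical2, Rap1a, Nck2, Adgrl2 and Vegfc.

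**Figure D4:**
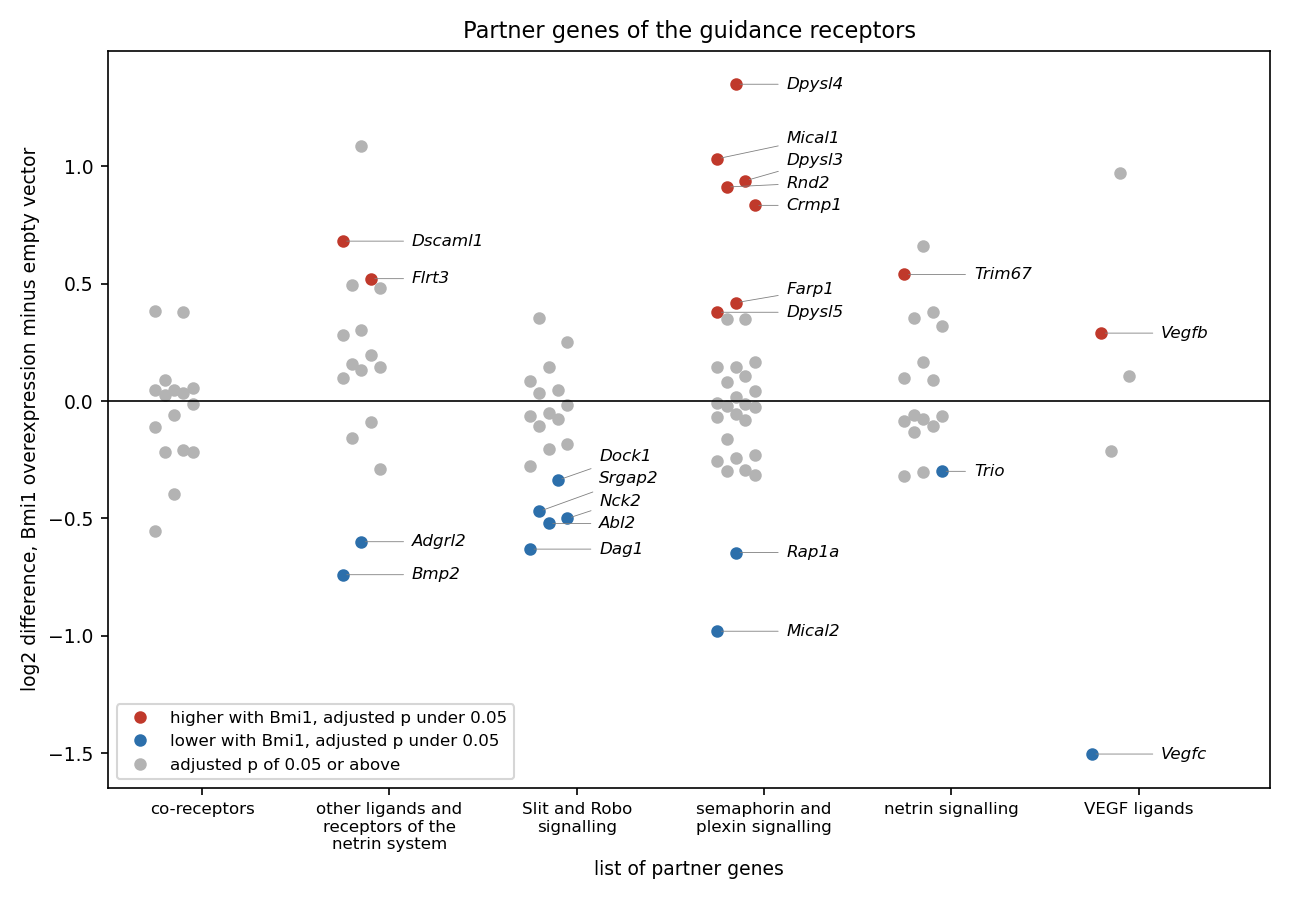
Log2 differences (Bmi1 overexpression minus empty vector, y axis) of the 106 measured partner genes, 1 point per gene in columns by list, n = 3 arrays per group. Named points passed the test. Dpysl4 (1.35) and Vegfc (-1.50) are the extremes among them, and all named points of the Slit and Robo list lie below 0.

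Cell type markers were examined beside these results. The mean level of 7 neural stem cell markers was 9.53 to 9.65 on the Bmi1 arrays and 9.29 to 9.34 on the empty vector arrays, and 1 of the 7, Prom1, rose (1.58, adjusted p = 0.0042 from limma). Without Prom1 the mean difference was 0.05 in place of 0.27, with 3 of the other 6 markers positive. The ranges stayed apart, at 10.25 to 10.30 with Bmi1 and 10.20 to 10.23 with the empty vector. The 6 oligodendrocyte lineage markers averaged 7.16 to 7.33 with Bmi1 and 6.95 to 7.00 with the empty vector, and Pdgfra rose (1.00, adjusted p = 0.012). Without Pdgfra the mean difference was 0.13 in place of 0.27, and the ranges overlapped. The 5 astrocyte markers averaged 7.22 to 7.39 with Bmi1 and 7.10 to 7.28 with the empty vector, and Aqp4 rose (1.06, adjusted p = 0.017). Without Aqp4 the mean difference was -0.11 in place of 0.13, and Gfap lay below the array median on all arrays. The 6 neuronal markers averaged 4.37 to 4.49 with Bmi1 and 4.23 to 4.38 with the empty vector, and Dcx rose (0.55, adjusted p = 0.012), although Dcx and Stmn2 lay below the array median on all arrays. Without Dcx the mean difference was 0.06 in place of 0.14. The 7 pericyte and fibroblast markers averaged 5.17 to 5.36 with Bmi1 and 5.34 to 5.41 with the empty vector, and Acta2 fell by 1.34 (adjusted p = 0.023). Without Acta2 the mean difference turned to 0.12, against -0.09 with it, and 5 of the other 6 markers were positive. The ranges were then apart, at 4.82 to 4.92 with Bmi1 and 4.70 to 4.78 with the empty vector. The 4 ependymal markers averaged 4.07 to 4.16 with Bmi1 and 4.15 to 4.22 with the empty vector, and the 6 endothelial markers 4.06 to 4.12 with Bmi1 and 3.99 to 4.06 with the empty vector, with 0 calls in both lists. The 6 microglial markers averaged 3.28 to 3.35 with Bmi1 and 3.20 to 3.35 with the empty vector. All 6 lay below the array median on every array, as did 4 of the 6 endothelial markers. The part of these markers in the differences of the guidance genes was not tested.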

How the data were processed

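RNA of 6 neurosphere samples, 300 ng each, was measured on single-colour arrays. The deposited values are log2 expression, 1 value for each probe set, which the authors made by RMA in Affymetrix Expression Console, according to the submitters' processing notes. Software versions, the library file and the genome build were not given in the sources used here. RMA quantile-normalizes the arrays, so only changes relative to the whole array can be measured. The platform annotation names 1 gene for 21789 of 35557 probe sets, several for 1621 and none for 12147. Where a gene had several probe sets, the one with the highest mean over all 6 arrays was used, which left 47 of 50 members unaffected. The comparison used lmFit and eBayes of limma 3.58.1 (R 4.3.3), two-sided and without a filter, adjusting over all 35557 probe sets, and the script was tested on simulated data. The number of arrays limits the precision.

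Members and gene lists were chosen with earlier results of these data known. Ntng2, Adora2b, Pak1 and Ptk2 of the partner lists had no probe set naming them alone. All values were given for members past the test, for the 5 largest differences among the others and for receptors or ligands of called members. Other members were summarised, and up to 4 partner genes per list were named by smallest adjusted p. Dpysl2, Dpysl3, Dpysl5, Mical2, Farp1, Rap1a and Dock1 were named after their values were seen. Alternatives were the t-test of the methods, filters at a mean of 5 or 6, the mean of a gene's probe sets, scaling by median or by quantiles, array weights, a trended or robust variance prior, the replicate block and leaving out single arrays. Promoter windows came from RefSeq (GRCm38.p6) and were matched by symbol. Figures were drawn with matplotlib 3.10.9.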

Additional observations from a re-analysis of the deposited data

How the results depend on the processing

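All 14 called guidance genes kept their direction under all alternatives that gave a value. Their groups do not overlap, so leaving out an array could not turn a sign. The t-test, the variance priors, the filters and the replicate block return the same difference as the main fit. The kept direction is therefore no test of it in those fits. Of the values computed for single members, 64 fell short of the threshold where the 6-array value had passed, 14 passed where it had not, and 0 changed sign past it. With 1 array left out, 7 to 9 guidance genes passed (1 to 3 higher and 5 to 7 lower, against 6 and 8 with all arrays), as did 11 to 16 partner genes (22 with all) and 974 to 1275 probe sets (2025 with all). With the replicate block, 8 guidance genes passed (2 higher, 6 lower), 11 partner genes and 850 probe sets. Of those 8, 6 were among the 14 (Slit2, Unc5b, Sema3a, Sema3c, Sema6a and Nrp2), and Robo1 and Unc5a were gained. Ntn4, which had held with each array left out, did not pass with the block (adjusted p = 0.055 from limma). Deviations of same-numbered samples correlated at 3.4e-05, -0.032 and -0.018. Taken over all probe sets, these correlations cannot decide whether same-numbered samples share a culture, which the labels do not say. The methods' t-test (p under 0.001 with a log2 difference of 1 or more) passed 3 guidance genes (1 higher, 2 lower), 2 partner genes and 300 probe sets (100 higher, 200 lower), and after Benjamini-Hochberg 8 guidance genes (2 higher, 6 lower), 19 partner genes and 1377 probe sets. With fewer dim probe sets tested, 3424 passed at a mean of at least 5 and 3193 at 6, where 9 guidance genes (1 higher) of 21 tested and 34 partner genes passed. How many probe sets met each filter is not given here, so these counts have no share of all probe sets beside them. At a mean of at least 5, 12 guidance genes (4 higher, 8 lower) of 29 tested passed, with Plxnb2, Robo1, Sema6b and Unc5a gained. The genes gained at 6 were Plxnb2, Robo1 and Sema4c. The filter at 5 leaves the called genes Slit2, Nrp2, Sema3c, Sema6c, Sema7a and Unc5c untested, and the filter at 6 also Unc5b and Plxnd1. The variance prior with trend passed 3190 probe sets and 17 guidance genes, the added ones being Plxnb2, Robo1 and Unc5a. Median centring left 12 guidance genes, without Plxnd1 and Sema6c, and turned the split of all probe sets from 794 higher and 1231 lower into 593 and 1467. Bmi1 passed under none of the alternatives. The cause of these changes was not tested. Genes below the array median carry little signal over background, which limits what can be detected in 10 members.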
